A study of Sus scrofa with 10 samples.

Results

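The genes described here encode 10 DCAFs (DDB1 and CUL4 associated factors), the substrate receptors of the CUL4 ubiquitin ligase: DCAF13, DCAF4, DCAF5, DCAF6, DCAF7, DCAF8, DCAF15, CRBN, ERCC8 and DTL. They were chosen by name and for their known place in the ligase, as 10 of the 24358 genes in the gene table, and have 33 of the 47421 isoforms in the isoform table. The tables name 8 of them directly. DCAF4 and DCAF8 stand there under their identifiers and were matched through reference gene names, which the table's gene descriptions also give. Each of the 10 had 1 row.

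RNA came from pig embryos at the morula, the compacting ball of cells that precedes the blastocyst. Matured oocytes received siRNA against DDB1 (group DDB1_KD, 5 libraries) or a non-specific siRNA (group NC, 5 libraries). All embryos, controls included, were parthenogenetic: the oocytes were activated artificially, so neither group held a paternal genome. The labels used here state neither breed, donor age nor embryos per library. They do not say that replicates were cultured apart, so p-values measure only how these libraries vary, which may be technical in part.

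A CUL4 ligase is a modular enzyme. The cullin CUL4A or CUL4B holds the RING protein RBX1 at one end and the adaptor DDB1 at the other, and DDB1 docks 1 DCAF at a time, which decides which protein is ubiquitinated. Most receptors are WD40 repeat proteins, while CRBN and DCAF15 bind DDB1 through other folds and are known as the targets of thalidomide-type and sulfonamide drugs. In oocytes and early embryos the ligase is known for keeping the follicle pool, for clearing replication factors through DTL and for chromatin and ribosome functions of DCAF13. The values here are RNA levels; no protein was measured.

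The libraries held 32466912 to 50911295 estimated counts. The closest pair of libraries had Pearson's r = 0.946 across the genes tested (log2 CPM, counts scaled to library size), a value across genes, which are not independent replicates. DDB1 itself was at 0.920, 1.30, 1.28, 1.30 and 1.55 FPKM (fragments per kilobase of transcript, scaled to the library size) in DDB1_KD replicates 1 to 5 and at 3.59, 3.12, 2.53, 3.15 and 4.44 FPKM in NC, with no overlap. Its log2 fold change was -1.39 (SE 0.28), with an adjusted p of 0.977 by edgeR's quasi-likelihood test over all genes and of 0.0069 by DESeq2. The summed level of 6 embryo and pluripotency markers was 247 to 317 FPKM in DDB1_KD and 230 to 293 FPKM in NC. Of 11 cumulus and granulosa cell markers, 10 were in the table and none averaged 1 FPKM, FSHR, CYP11A1, AMH and INHA were listed at 0 in every library, and the summed level was at most 1.201 FPKM.

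The receptor genes were not called different between the groups. None of the 10 passed edgeR's quasi-likelihood test (Benjamini-Hochberg adjustment, threshold 0.05), where 0% of the 8476 genes tested did, and their adjusted p ran from 0.977 to 0.996. At an unadjusted p under 0.05 there were also 0 of 10, against 2.89% of all genes by edgeR, and the groups overlapped for all 10, where 0.413% of genes had no overlap. DESeq2 and limma called none of the 10 either, although DCAF13 had an unadjusted p of 0.0366 by DESeq2 (adjusted 0.993). Fitted values were higher in DDB1_KD for 6 members and lower for 4, against 50.0% higher among all genes, with a median log2 fold change of 0.11 against 0.00036 over all genes. All 10 passed the filter of a mean of 1 FPKM.

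**Figure D1:**
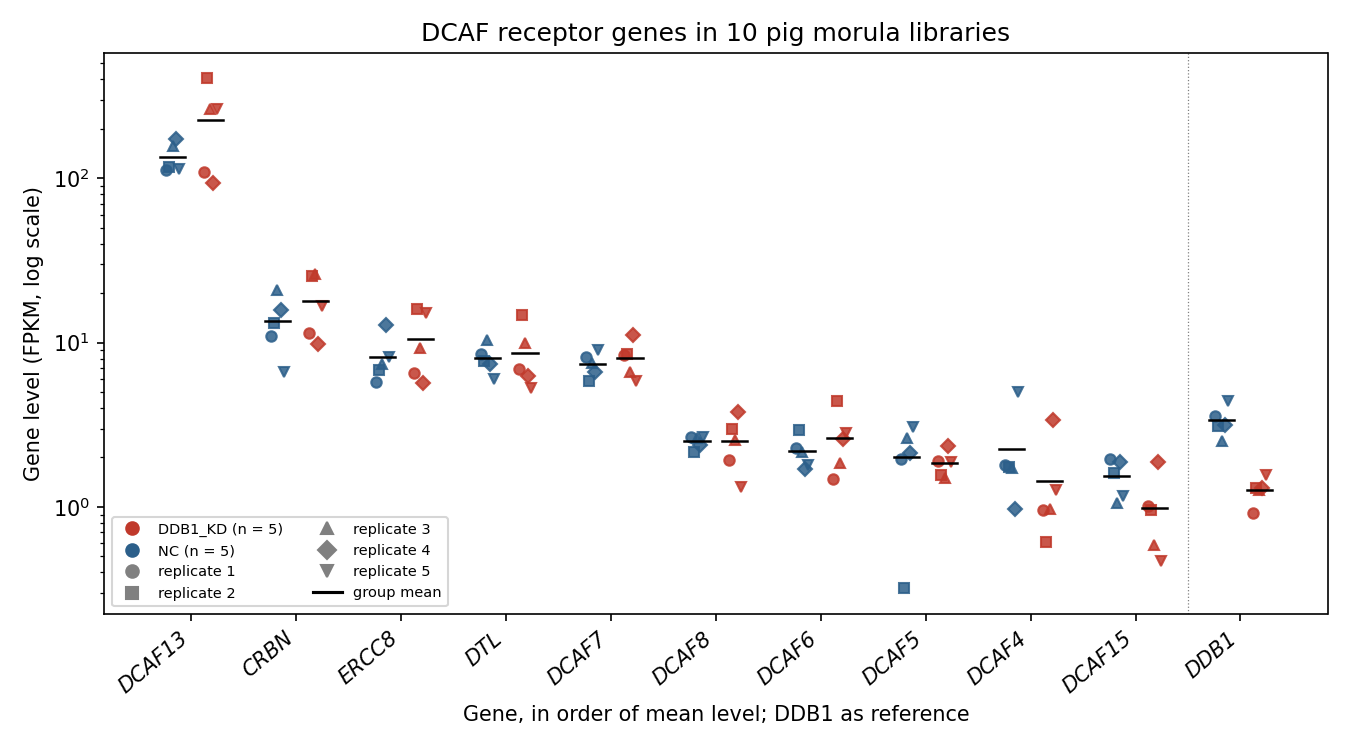
Level of each receptor gene (FPKM, log axis) in each of the 10 libraries, with DDB1 for reference; red points are DDB1_KD, blue points NC, the shape gives the replicate number and the black bar the group mean. DCAF13 stands above every other receptor shown in all libraries, and its DDB1_KD points lie on both sides of the NC points.

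The receptors were present at very unequal levels. DCAF13 averaged 181 FPKM over the 10 libraries, at percentile 95.3 of genes tested, and lay above CRBN, the next gene in order (15.7 FPKM), in 10 of 10 libraries without overlap of their ranges. ERCC8 (9.34 FPKM), DTL (8.31 FPKM) and DCAF7 (7.76 FPKM) followed and were not separated by their spread: ERCC8 exceeded DTL in 4 of 10 libraries and DTL exceeded DCAF7 in 6 of 10. CRBN exceeded ERCC8 in 9 of 10. A gap came below DCAF7, which exceeded DCAF8 in 10 of 10 libraries. DCAF8 (2.51 FPKM), DCAF6 (2.40 FPKM), DCAF5 (1.93 FPKM), DCAF4 (1.84 FPKM) and DCAF15 (1.26 FPKM) formed a low group in which neighbours overlapped, and DCAF15 stood at percentile 6.71 of genes tested. The median gene tested had 5.70 FPKM.

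These levels depend on the length used for a gene. The deposited gene FPKM implied 5963 bases for DCAF7, close to its longer isoform of 5962 bases, although its other isoform has 1383 bases, and 10593 bases for DCAF8, whose longest isoform has 6804. Summed over isoforms, DCAF7 averaged 16.3 FPKM and took the next place after DCAF13, just above CRBN (15.7 FPKM), and DCAF8 averaged 5.37 FPKM. The order of the other members was the same by both measures.

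DCAF13 made up most of the RNA of these 10 receptors. Of the summed FPKM of the 10 receptors it held 77.9% ± 7.77 (SD, n = 5) in DDB1_KD and 73.6% ± 2.05 (SD, n = 5) in NC. The sum of the other 9 was 54.5 ± 13.4 FPKM in DDB1_KD, against 47.6 ± 6.14 FPKM in NC (mean ± SD, n = 5 each). Receptors outside these 10 are not in these sums. Among them WDR61, a known or proposed receptor, had 172 ± 38.7 FPKM in DDB1_KD, against 165 ± 24.0 FPKM in NC (mean ± SD, n = 5 each). In NC, DCAF13 averaged 135 FPKM. On the same scale both cullins were at lower levels than DCAF13. CUL4A had 2.54 ± 1.29 FPKM in DDB1_KD, against 2.88 ± 0.579 FPKM in NC, and CUL4B 3.79 ± 1.66 and 4.96 ± 0.685 FPKM (mean ± SD, n = 5 each). RBX1, the RING subunit shared with other cullin ligases, had 209 ± 20.8 and 218 ± 32.8 FPKM, above DCAF13 in all 5 NC libraries and in DDB1_KD replicates 1 and 4, and below it in DDB1_KD replicates 2, 3 and 5. By gene FPKM every receptor except DCAF4, DCAF5, DCAF6, DCAF8 and DCAF15 had a mean level above that of DDB1 in NC, 3.37 FPKM. Summed over isoforms, DCAF8 was above it too, at 4.68 to 5.78 FPKM in the NC libraries. DCAF6 averaged 3.53 FPKM by that sum over the 10 libraries, and its NC libraries ran from 2.28 to 3.69 FPKM.

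DCAF13, a nucleolar WD40 protein of the small-subunit processome that matures 18S ribosomal RNA, is also a CUL4 receptor for the histone methyltransferase SUV39H1. The gene (ENSSSCG00000006048) lies on chromosome 4 from 33673828 to 33704458 on the minus strand of the susScr11 build and has 1 isoform of 12 exons. Its level was 109, 404, 264, 93.7 and 264 FPKM in DDB1_KD replicates 1 to 5 and 113, 117, 157, 174 and 113 FPKM in NC replicates 1 to 5. DDB1_KD replicates 2, 3 and 5 lay above every NC library and replicates 1 and 4 below every NC library, so that no DDB1_KD library fell inside the NC range. The coefficient of variation was 56.5% in DDB1_KD and 21.3% in NC. The log2 fold change of DCAF13 was 0.76 (SE 0.37, 95% interval -0.035 to 1.56, unadjusted p = 0.0594 by edgeR, adjusted 0.977), and 0.50 without DDB1_KD replicate 2.

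The same 3 DDB1_KD libraries held the most maternal oocyte RNA, the transcripts stored in the egg and cleared as the embryo takes over. The mean of 16 maternal transcripts was 4.62, 4.33 and 4.25 log2 CPM in DDB1_KD replicates 2, 3 and 5, 1.23 and 2.82 in replicates 1 and 4, and 1.86 to 3.96 in NC. Of 20 maternal genes listed, 18 were in the table, TLE6 was listed at 0 in every library, and the summed level of the list was 36.6 to 603 FPKM in DDB1_KD and 54.8 to 231 FPKM in NC. Over the 10 libraries DCAF13 and the maternal mean had Pearson's r = 0.750 (permutation p = 0.0153) and Spearman's rho = 0.745 (permutation p = 0.0177). With Benjamini-Hochberg adjustment over the 30 relations computed (10 receptors with 3 library measures) these were 0.0752 and 0.0886. Without DDB1_KD replicates 1 and 2, the libraries farthest from the median maternal level, r was 0.693. The relation was not DCAF13's alone: with the maternal mean CRBN had r = 0.758 (permutation p = 0.0123, adjusted 0.0752), rho = 0.806 (permutation p = 0.00727, adjusted 0.0652) and r = 0.812 without the same libraries. DCAF6 had r = 0.733 (permutation p = 0.0159, adjusted 0.0752), rho = 0.709 (permutation p = 0.0265, adjusted 0.112) and r = 0.489 without them. DCAF13 with the mitochondrial percentage of counts had r = 0.711 (permutation p = 0.0169, adjusted 0.0752), rho = 0.697 (permutation p = 0.0300, adjusted 0.112) and r = 0.722 without DDB1_KD replicate 5 and NC replicate 1. The groups hold 5 libraries each, too few for r within a group. Permutation was over all 10 libraries without regard to group. All 16 maternal transcripts had a higher fitted value in DDB1_KD (median log2 fold change of 0.81), against 50.0% of all genes, and none passed edgeR's test. DCAF13 also had a higher fitted value, so r does not separate differences between the groups from those within them. Trophectoderm transcripts mark the outer embryonic lineage, and the mean of 6 of them was lowest in DDB1_KD replicate 2. These were GATA3, GATA2, TFAP2C, TEAD4, KRT8 and KRT18, while CDX2 was below the filter. GATA3 and GATA2 had 0 counts in DDB1_KD replicate 2, and KRT8 and KRT18 were lowest there. TFAP2C (43.0 FPKM) and TEAD4 (4.72 FPKM) were inside the NC range there. The mean was 0.889 log2 CPM in DDB1_KD replicate 2 and 4.72 to 7.23 in the other 9 libraries. Of the other maternal-rich libraries, DDB1_KD replicate 3 had 4.72, below every NC library, and replicate 5 had 6.11, inside the NC range of 5.71 to 7.23. With DCAF13 this mean had r = -0.740 (permutation p = 0.00464, adjusted 0.0696) and rho = -0.794 (permutation p = 0.00869, adjusted 0.0652), and r was -0.360 without DDB1_KD replicates 2 and 3. The part of maternal, trophectoderm or mitochondrial RNA in the DCAF13 values was not tested. In whole embryos fewer cells with a transcript and less of it per cell cannot be told apart.

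**Figure D2:**
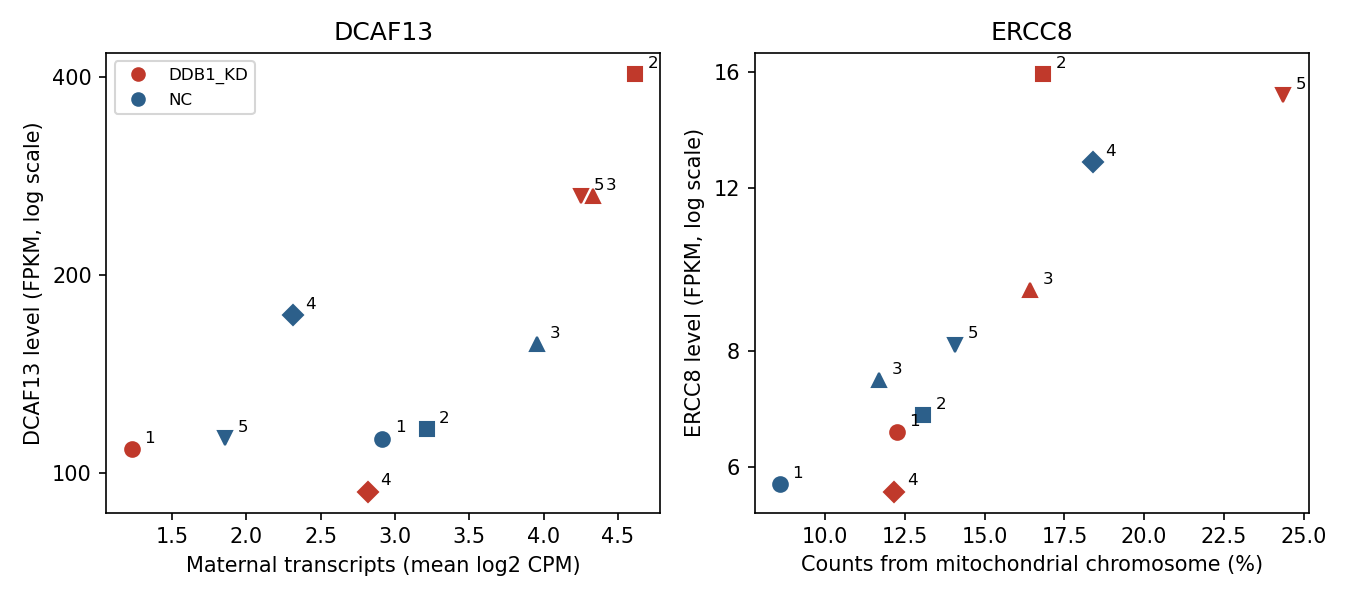
Left, DCAF13 level (FPKM, log axis) against the mean log2 CPM of 16 maternal oocyte transcripts; right, ERCC8 level (FPKM, log axis) against the percentage of counts from the mitochondrial chromosome. Each point is 1 library, red for DDB1_KD and blue for NC, numbered by replicate; DDB1_KD replicates 2, 3 and 5 lie at the upper right on the left side, and ERCC8 is highest in the libraries with a high mitochondrial percentage.

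The 3 tested genes whose pattern over the 10 libraries was most like that of DCAF13 were PHC3, a Polycomb protein (r = 0.970 of log2 CPM), ABRAXAS2, a scaffold of a deubiquitinating complex (r = 0.966), and VMP1, an autophagy membrane protein (r = 0.965). They were taken as the highest of all genes, which makes these values a description. Their mean levels were 1.98, 17.6 and 40.4 FPKM in DDB1_KD and 1.28, 14.1 and 28.6 FPKM in NC.

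ERCC8, also called CSA, directs the ligase in transcription-coupled repair and acts with ERCC6 (CSB) where RNA polymerase stalls at damaged DNA. The gene (ENSSSCG00000016934) lies on chromosome 16 from 39704605 to 39770315 on the minus strand. Its level was 6.54, 15.9, 9.30, 5.64 and 15.1 FPKM in DDB1_KD and 5.74, 6.82, 7.44, 12.8 and 8.13 FPKM in NC. DDB1_KD replicates 2 and 5 lay above the highest NC library, replicate 4 below the lowest. The log2 fold change was 0.37 (SE 0.36, interval -0.41 to 1.15), and 0.18 without DDB1_KD replicate 5 or 0.63 without NC replicate 4. Mitochondrially encoded RNA took its largest shares of the counts in DDB1_KD replicate 5 (24.4%), NC replicate 4 (18.4%) and DDB1_KD replicate 2 (16.8%), the same libraries in which ERCC8 was highest. ERCC8 and that share had r = 0.890 (permutation p = 0.00021, adjusted 0.0063) and rho = 0.891 (permutation p = 0.00104, adjusted 0.0220) over 10 libraries, and r was 0.902 without DDB1_KD replicate 5 and NC replicate 1. No other relation of the 30 had an adjusted p for r under 0.05. What the mitochondrial share reflects in these libraries was not tested.

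CRBN, known as the target of thalidomide, binds substrates through a domain that is not a WD40 propeller. It lies on chromosome 13 from 59733513 to 59757706 on the minus strand (ENSSSCG00000011530). Its level was 11.4, 25.5, 26.2, 9.77 and 16.6 FPKM in DDB1_KD and 10.95, 13.2, 20.8, 15.9 and 6.61 FPKM in NC. DDB1_KD replicates 2 and 3 were above all NC libraries, and the others were inside the NC range. The log2 fold change was 0.42 (SE 0.37, interval -0.38 to 1.22), and 0.23 without DDB1_KD replicate 3 or 0.61 without NC replicate 3. CRBN shares 1888 bases with TRNT1 on the other strand, a tRNA-processing enzyme gene at 18.6 to 39.8 FPKM that was also highest in DDB1_KD replicates 2 and 3 (39.8 and 33.1 FPKM). In NC replicate 5, where CRBN was lowest of all libraries, TRNT1 had 25.2 FPKM, against an NC mean of 24.2 FPKM. The sources used here do not say whether reads were counted by strand, so reads from the shared stretch cannot be assigned to either gene.

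DTL, or CDT2, recognises substrates bound to PCNA on replicating chromatin and removes CDT1, p21 and the histone methyltransferase KMT5A in S phase. The gene (ENSSSCG00000015600; chromosome 9, 131227717 to 131268958, minus strand) was at 6.94, 14.7, 9.87, 6.23 and 5.31 FPKM in DDB1_KD and at 8.55, 7.70, 10.4, 7.45 and 5.997 FPKM in NC. DDB1_KD replicate 2 alone exceeded the NC range, and replicate 5 alone was below it. The log2 fold change was 0.10 (SE 0.30, interval -0.55 to 0.75), and it was -0.14 without DDB1_KD replicate 2 and -0.0013 without NC replicate 5.

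DCAF15, the receptor through which aryl sulfonamides degrade the splicing factor RBM39, had the lowest fitted value of the 10. Its level was 1.01, 0.959, 0.584, 1.87 and 0.470 FPKM in DDB1_KD (81 to 221 counts) and 1.97, 1.61, 1.05, 1.89 and 1.17 FPKM in NC (129 to 346 counts). In 4 of 5 DDB1_KD libraries it was below the lowest NC library, while DDB1_KD replicate 4 was inside the NC range. The log2 fold change was -0.70 (SE 0.40, interval -1.57 to 0.18, unadjusted p = 0.108 by edgeR). It was -0.999 without DDB1_KD replicate 4 and -0.53 without DDB1_KD replicate 5. DCAF15 (ENSSSCG00000013763) lies on chromosome 2 from 65204820 to 65213822 on the minus strand and shares 729 bases with RFX1 on the other strand. RFX1, a transcription factor gene at 0.250 to 1.83 FPKM, was highest of all 10 libraries in DDB1_KD replicate 4, where DCAF15 was highest within its group. Within NC, RFX1 was highest in replicate 5 (1.14 FPKM), where DCAF15 had 1.17 FPKM, below the NC mean of 1.54 FPKM. The part of RFX1 reads in the DCAF15 values was not tested.

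DCAF4, a WD40 receptor (ENSSSCG00000028159; chromosome 7, 96288803 to 96319275, plus strand), was the most uneven member within both groups. It had 0.953, 0.614, 0.971, 3.40 and 1.26 FPKM in DDB1_KD and 1.79, 1.75, 1.72, 0.970 and 5.01 FPKM in NC. In each group 1 library, DDB1_KD replicate 4 and NC replicate 5, stood well above the other 4. The log2 fold change was -0.65 (SE 0.52, interval -1.78 to 0.48), -0.17 without NC replicate 5 and -1.15 without DDB1_KD replicate 4. With the trophectoderm mean DCAF4 had rho = 0.879 (permutation p = 0.00147, adjusted 0.0220) and r = 0.715 (permutation p = 0.0200, adjusted 0.0752), and r was 0.576 without DDB1_KD replicates 2 and 3. The part of that lineage's RNA in the DCAF4 values was not tested.

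**Figure D3:**
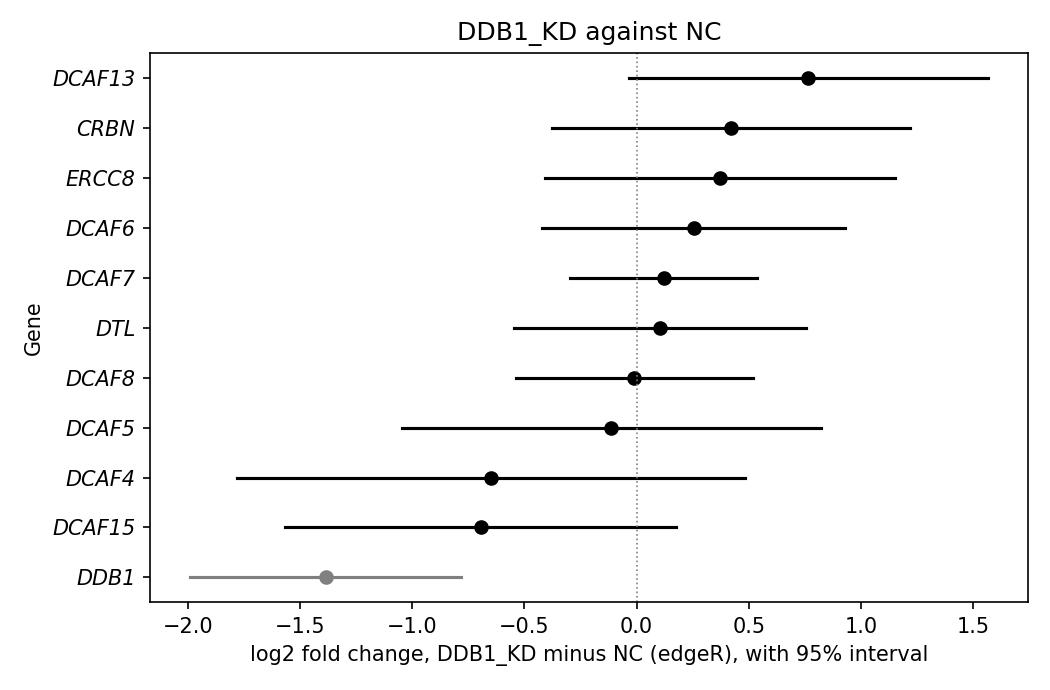
Fitted log2 fold change of each receptor gene, DDB1_KD minus NC, as a point with its 95% interval from edgeR; DDB1 is in grey. The intervals of all 10 receptors include 0, and that of DDB1 runs from -1.99 to -0.78.

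The remaining members had fitted values from -0.11 to 0.25, with intervals of unequal width. DCAF6, or NRIP, a coactivator of nuclear receptors, ranged from 1.47 to 4.40 FPKM in DDB1_KD and from 1.71 to 2.95 FPKM in NC. Its log2 fold change was 0.25 (SE 0.31, interval -0.42 to 0.93), with 0.019 without DDB1_KD replicate 2 and 0.43 without NC replicate 2. DCAF7, a scaffold of DYRK1A and HIPK2 kinases, ranged from 5.82 to 11.1 FPKM and from 5.85 to 9.03 FPKM (0.12, SE 0.19, with 0.028 without DDB1_KD replicate 4 and 0.21 without DDB1_KD replicate 5). It had the narrowest interval, -0.30 to 0.54, or 0.813 to 1.45 times the NC level. DCAF5, which acts with the methyl-lysine reader L3MBTL3, ranged from 1.51 to 2.34 FPKM in DDB1_KD and from 0.320 to 3.06 FPKM in NC (-0.11, SE 0.43). The interval of DCAF5, -1.05 to 0.82, spans 0.484 to 1.77 times the NC level. Its lowest library was NC replicate 2, without which the value was -0.37, and it was 0.057 without NC replicate 5. DCAF8 had 2.52 ± 0.950 FPKM in DDB1_KD, against 2.51 ± 0.220 FPKM in NC (mean ± SD, n = 5 each; -0.010, SE 0.24). The interval of DCAF8, -0.54 to 0.52, spans 0.688 to 1.43 times the NC level.

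The spread between libraries was wider in DDB1_KD than in NC for most members. The coefficient of variation was larger in DDB1_KD for 9 of the 10 receptors, DCAF5 being the exception, and for 70.4% of all genes tested. It was 37.8% in DDB1_KD and 8.77% in NC for DCAF8, 44.1% and 20.1% for DTL, and 17.95% and 51.7% for DCAF5.

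Across the 10 libraries some receptors varied together. Of the 45 pairs of members, 21 had a positive Pearson's r of log2 CPM. DCAF13, CRBN, ERCC8, DTL and DCAF6 were positive with one another in every pair (r = 0.29 to 0.89), and DCAF4, DCAF7 and DCAF15 were negative with each of these 5, while DCAF5 and DCAF8 kept to neither side. Of these pairs 4 changed sign when the 2 libraries farthest from the median of the first gene were left out: DCAF13 with DCAF6 (0.53 to -0.14), DCAF6 with DTL (0.39 to -0.14), DCAF4 with DCAF6 (-0.34 to 0.53) and DCAF7 with DTL (-0.18 to 0.10). After adjustment over the 45 pairs 2 had a p for r under 0.05, both with DCAF13. With ERCC8, r was 0.887 (permutation p = 0.00117, adjusted 0.0493) and rho 0.855 (permutation p = 0.00272, adjusted 0.0612). With CRBN, r was 0.841 (permutation p = 0.00219, adjusted 0.0493) and rho 0.903 (permutation p = 8e-04, adjusted 0.036). Without DDB1_KD replicates 2 and 5 these r were 0.777 and 0.872. The most negative pair was DCAF4 with CRBN (r = -0.816, permutation p = 0.00406, adjusted 0.0609; rho = -0.673, permutation p = 0.0389, adjusted 0.350; r = -0.600 without DDB1_KD replicate 2 and NC replicate 5). All pairs share the same 10 libraries and their scaling, and the libraries differ in maternal RNA as given above.

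**Figure D4:**
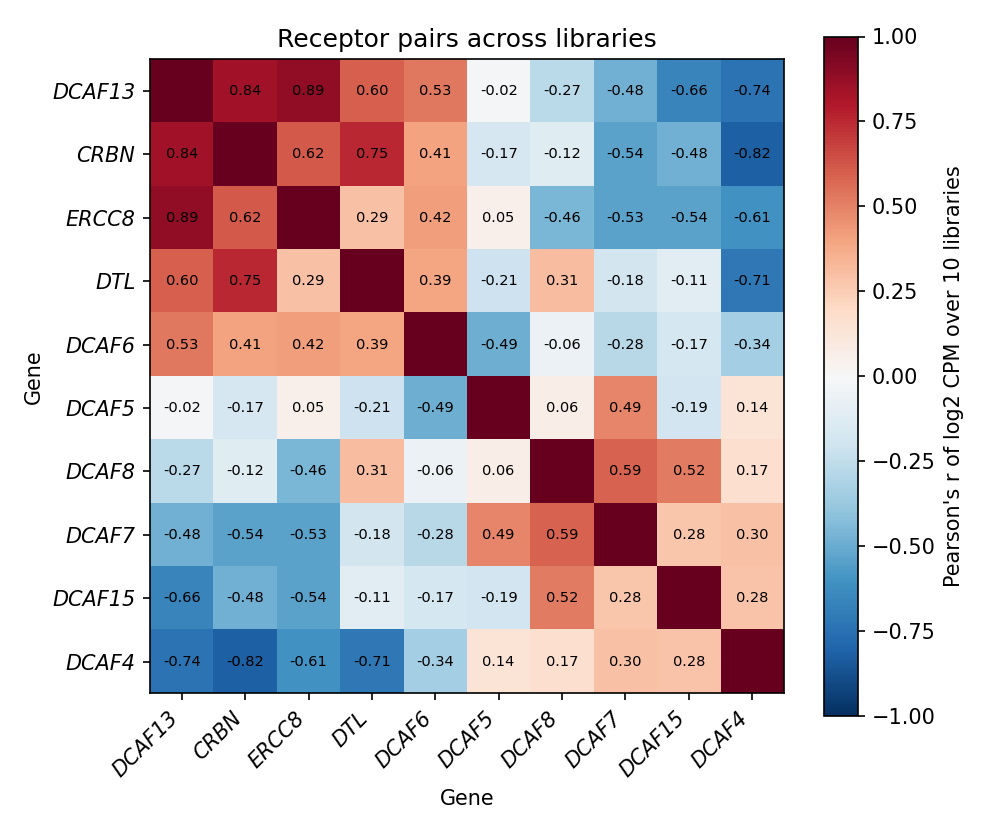
Pearson's r of log2 CPM over the 10 libraries for each pair of the 10 receptor genes, from -1 (blue) to 1 (red). The 5 genes at the upper left, DCAF13, CRBN, ERCC8, DTL and DCAF6, have positive values with one another and negative values with DCAF7, DCAF15 and DCAF4.

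At the level of isoforms, 12 of the 33 had a mean of at least 1 FPKM and were tested. None passed edgeR's test over all 11250 isoforms (adjusted p = 0.9997 for each), where 0.00889% did, and none had an unadjusted p under 0.05, against 3.36%. In DESeq2, 0 of the 12 passed as well. Fitted values were higher in DDB1_KD for 7 and lower for 5, against 50.6% higher among all isoforms. Counts were listed at 0 in every library for 6 isoforms, among them the shorter isoform of CRBN, and a 0 allows up to 3 counts in each library, counting error only.

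DCAF8, with a gene value near 0, was divided differently among its 9 isoforms from library to library. Lead isoforms were read only for DCAF6, DCAF7 and DCAF8, so the share of other genes with such a division is not known. ENSSSCT00000042069, of 12 exons and 5266 bases, had the most counts of the 9 in all 5 NC libraries and in 1 of 5 DDB1_KD libraries. It had 668, 316, 201, 263 and 0 counts in DDB1_KD replicates 1 to 5 and 680, 646, 505, 1070 and 681 counts in NC. Its level was 1.30 ± 1.02 FPKM in DDB1_KD, against 3.07 ± 0.562 FPKM in NC (mean ± SD, n = 5 each). The groups overlapped through DDB1_KD replicate 1, and the log2 fold change of -1.26 (SE 1.09) did not pass (unadjusted p = 0.276 by edgeR, adjusted 0.9997). It ranged from -1.80 to -0.94 with 1 library left out. ENSSSCT00000042473, of 14 exons, led in DDB1_KD replicates 4 and 5 with 921 and 614 counts. It had 0, 288 and 267 counts in replicates 1 to 3, and 0, 246, 162, 7 and 591 in NC, and its log2 fold change was 1.23 (SE 1.68), 0.61 without DDB1_KD replicate 4 and 1.96 without NC replicate 5.

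**Figure D5:**
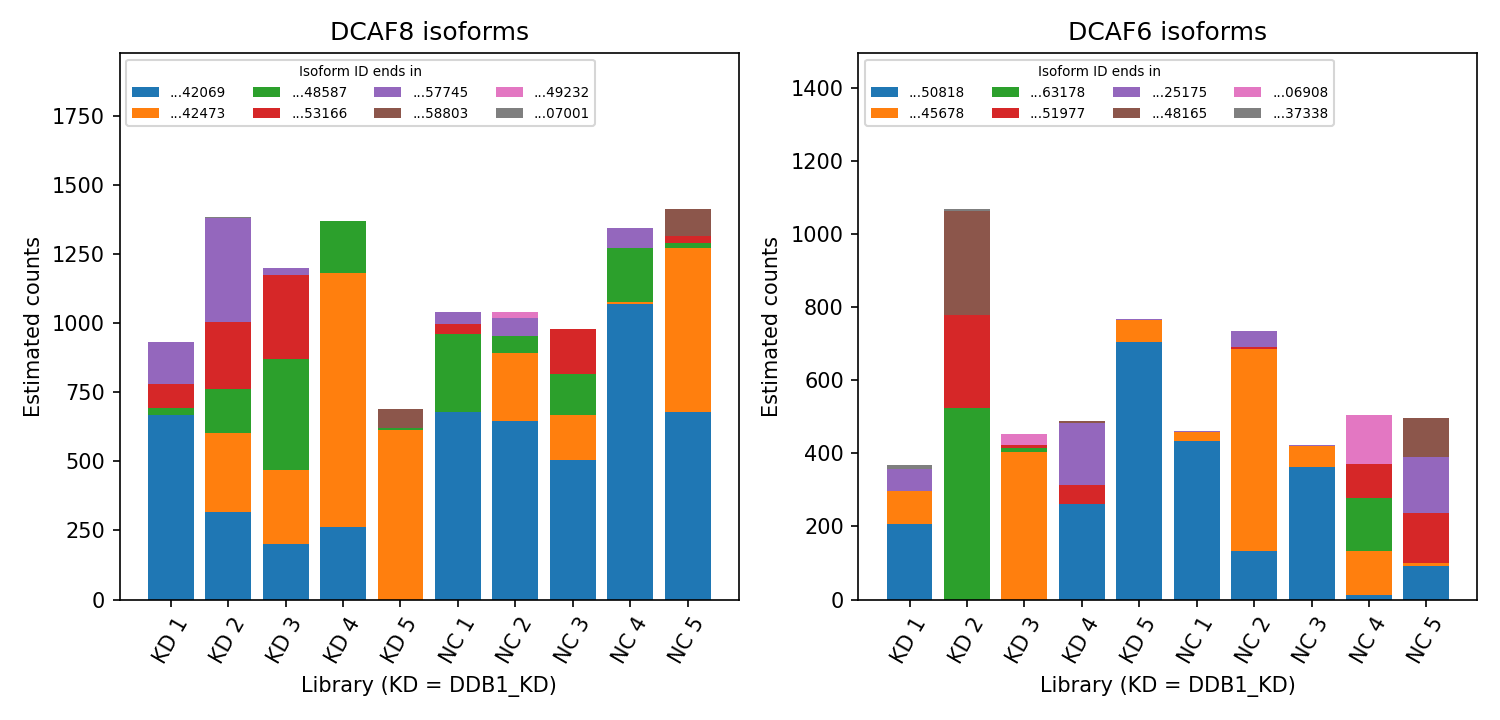
Estimated counts of each isoform of DCAF8 (left) and DCAF6 (right) in each library, stacked to the gene's count; colours give the last digits of the isoform identifier. For DCAF8 the blue isoform ENSSSCT00000042069 is the largest part in all 5 NC libraries and, of the DDB1_KD libraries, in replicate 1.

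DCAF6 had no steady lead isoform in either group. ENSSSCT00000050818 held the most counts in 3 DDB1_KD and 2 NC libraries, ENSSSCT00000045678 and ENSSSCT00000063178 in 1 of each, and ENSSSCT00000025175 in 1 NC library. DCAF7 was steadier: its 7-exon isoform of 5962 bases had the most counts in all 10 libraries, with 5.69 ± 1.88 FPKM in DDB1_KD, against 4.70 ± 0.919 FPKM in NC, and the 8-exon isoform of 1383 bases had 10.3 ± 3.46 and 11.8 ± 3.17 FPKM (mean ± SD, n = 5 each). Their log2 fold changes were 0.27 (SE 0.23) and -0.18 (SE 0.30). Leads were taken by counts, which grow with isoform length. By FPKM the 1383-base isoform of DCAF7 was above the 5962-base isoform in every library. The lead by FPKM also differed for DCAF8 in DDB1_KD replicate 3 and for DCAF6 in NC replicate 4. ERCC8 counts came from ENSSSCT00000018442 alone except in NC replicates 3 and 5. There ENSSSCT00000057189 was listed with 230 and 125 counts, beside 299 and 693 counts of ENSSSCT00000018442. The split of reads between overlapping isoforms is an estimate, and its error is not part of these values.

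Other known or proposed receptors of the ligase were read from a list of 32 genes, of which 24 were tested. None passed edgeR's test or had an unadjusted p under 0.05, against 0% and 2.89% of all genes. In DDB1_KD 18 had a higher and 6 a lower fitted value, with a median of 0.11, against 50.0% higher among all genes. EED, the H3K27 reader of Polycomb, had 102 ± 36.9 FPKM in DDB1_KD, against 72.3 ± 16.2 FPKM in NC (mean ± SD, n = 5 each; log2 fold change 0.51, SE 0.30). WDR53 was at 0.48 (SE 0.30), BRWD3 at 0.34 (SE 0.28) and PHIP at -0.31 (SE 0.22). DDB2, the ultraviolet damage receptor, reached 0.620 FPKM at most and was not tested, and DCAF16 was listed at 0 counts in every library. Among the 13 genes of the ligase core and its NEDD8 pathway, 7 were higher and 6 lower, against the same 50.0%. DDB1 was the 1 with an unadjusted p under 0.05 by edgeR, against the same 2.89%. UBE2G1, a ubiquitin-conjugating enzyme that works with CUL4, was at 0.47 (SE 0.27), CUL4B at -0.42 (SE 0.30) and UBE2M, the NEDD8-conjugating enzyme, at -0.41 (SE 0.28).

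Genes of proteins known as substrates or partners of these receptors were split too. Of 24 tested, 11 had a higher and 13 a lower fitted value (median log2 fold change of -0.039), against 50.0% higher among all genes. None passed edgeR's test, where 0% of all genes did, and 1 had an unadjusted p under 0.05, close to the 2.89% of all genes. That gene was GLUL, glutamine synthetase, a CRBN substrate, with 8.07 ± 2.37 FPKM in DDB1_KD, against 12.8 ± 4.25 FPKM in NC (mean ± SD, n = 5 each; log2 fold change -0.64, SE 0.28, unadjusted p = 0.0416 by edgeR, adjusted 0.977). Partners of DCAF13 in the processome were near 0, with NOP56 at -0.044 (SE 0.16), NOP58 at 0.056 (SE 0.16) and UTP3 at 0.066 (SE 0.22). SUV39H1 was below the filter. PCNA, the platform of DTL, had 336 ± 200 FPKM in DDB1_KD, against 289 ± 72.5 FPKM in NC (mean ± SD, n = 5 each). DDB1_KD replicate 2 had 688 FPKM, and the medians went the other way, 267 FPKM in DDB1_KD and 306 FPKM in NC. RBM39, the drug-induced substrate of DCAF15, had 55.7 ± 10.7 FPKM in DDB1_KD, against 57.0 ± 7.73 FPKM in NC (mean ± SD, n = 5 each).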

How the data were processed

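RNA of 10 pig morula samples was sequenced in pairs from fragmented cDNA, per the labels' protocols. The build is susScr11, and the tools are edgeR, StringTie, HISAT2, fastp, ChIPseeker and HOMER, per the submitters' processing notes, with versions and roles not given in the sources used here. Deposited tables hold FPKM values and counts per gene and isoform and library, per the file headers. The counts are treated here as estimated counts, since whether they are read tallies or estimates from coverage is not stated. They are whole numbers, and isoform counts sum to the gene count for all 24358 genes. Table columns spell the group DBB1; they were matched by group and number.

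edgeR 4.0.16 (glmQLFit, glmQLFTest, TMM scaling, R 4.3.3) was run on the estimated counts as deposited, over all genes or isoforms with a mean of at least 1 FPKM, with the group as the only term. SE is the coefficient divided by the root of F, and intervals are 95%. limma 3.58.1 on log2(FPKM + 1), with 0.1 as another pseudocount, and DESeq2 1.42.0 served as other tests. Log2 CPM had a prior count of 2, and permutation p-values (two-sided) used 100000 resamples over all 10 libraries, without regard to group. The tests were also run on simulated counts with known changes, and their outcome is not given here. Python 3.11.15 with pandas 2.3.3 and matplotlib 3.10.9 made the summaries and figures.

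Named are all 10 members, their isoforms with a mean of at least 1 FPKM, DDB1 and the 3 genes most like DCAF13. Of the other receptors and of the ligase core, up to 4 genes with the smallest p are named. Of the substrates and partners only the 1 with the smallest p is named for its p. Other list genes were named after their values were seen. One item under this rule is not reported here. Members and lists were chosen with earlier results of these data known. Total counts were 32466912 to 50911295, and the biological coefficient of variation between libraries was 47.6%. No sequences were used here. Alternatives were the scaling, the filter, the test, the pseudocount, the replicate number as a block and each library left out in turn.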

Additional observations from a re-analysis of the deposited data

Results flagged for a closer look

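DCAF4 stood apart in 1 library of each group. In DDB1_KD replicate 4 it had 3.40 FPKM, with the next library at 1.26 FPKM, a gap of 0.767 of the group's range. In NC replicate 5 it had 5.01 FPKM, with the next at 1.79 FPKM, a gap of 0.797. Both gaps exceed the 95% limit of 0.710 for 5 samples (Dixon's test). Chance alone gives such a gap in about 1 of 20 groups, and 20 groups were examined (10 receptors, each in DDB1_KD and in NC).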

How the results depend on the processing

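No receptor gene or isoform passed under any alternative run. edgeR called 0 genes in all its fits and DESeq2 called 2 (353 at an unadjusted p under 0.05, against 245 by edgeR); the isoform count of 1 was 68 with DESeq2, 0 without a filter and 0 with the replicate number as a block, and 0 to 2 when 1 library was left out (genes 0 to 0). Signs turned for DCAF5, DCAF8 and DTL and for isoforms of DCAF5, DCAF6 and DTL. DCAF5 was at 0.13 with limma at a pseudocount of 0.1 and at 0.13 with the replicate block, as was its isoform (0.13). DCAF8 was at 0.012 with DESeq2-type size factors, 0.0078 with total counts and 0.012 with DESeq2. The DCAF6 isoform ENSSSCT00000050818 was at -0.0040 without a filter, -0.10 with limma and -1.49 with the block. When 1 library was left out, DCAF5 ranged from -0.37 to 0.057 (its isoform from -0.38 to 0.060), DCAF8 from -0.15 to 0.15, DTL from -0.14 to 0.23 (its isoform from -0.15 to 0.23) and that DCAF6 isoform from -0.88 to 0.52. The causes were not tested. Replicate numbers did not pair the libraries (correlations of same-numbered deviations from -0.14 to 0.35, 1 of 5 best with its own number), so the block is only an alternative, and it changed no call of a receptor. Isoforms with a mean under 1 FPKM were not tested.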
